A study of Mus musculus with 12 samples.

Results

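The data compared intact lungs of mice that lack Zmpste24 with intact lungs of wild type mice, neither exposed to a ventilator. Of 12 arrays in all, 6 belong to this comparison, 3 from Zmpste24-/- and 3 from wild type mice, chosen by their labels alone. Each array held total RNA from the whole lung of 1 female mouse aged 10 weeks, and replicates of a group were labelled as separate biological samples. The other 6 arrays, 3 of each genotype, came from mice of the same sex and age after 2.5 hours on a ventilator, with an inspiratory pressure of 15 cmH2O, zero end-expiratory pressure, a rate of 100 per minute and room air (oxygen fraction 0.21). They entered the fit as a source of variance and served as a second set of mice in which the genotype difference was read. The labels used here state neither the strain, nor the construct of the Zmpste24 allele, nor litters, nor the time of day at which lungs were taken.

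Zmpste24 is a membrane-bound zinc metalloprotease that trims farnesylated prelamin A to mature lamin A, a filament protein of the nuclear lamina. Without it the farnesylated precursor accumulates at the nuclear rim. Mice that lack the enzyme in all tissues develop a premature ageing syndrome, with weight loss, bone fragility and lipodystrophy, and have been used as a model of progeroid laminopathies.

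All values are the deposited log2 expression values, so a difference of 1 is a 2-fold change. Differences are Zmpste24-/- minus wild type with their standard error from a limma fit over 22180 genes. A gene was counted as passed when its Benjamini-Hochberg adjusted p over all genes was under 0.05. A pass is said to have held when it also stood in each of the 6 fits that left out 1 intact array. Of the 138 named genes that passed, other than Zmpste24 itself, 94 held, and 111 passed without wild type array 2, the array with liver transcripts.

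The targeted gene followed the labels. Zmpste24 stood at 9.0, 9.02 and 8.50 in the wild type arrays and at 5.91, 5.31 and 5.44 in the Zmpste24-/- arrays. The deposited values differed 9.78-fold (difference -3.29 ± 0.22, adjusted p = 1.18e-05), and the pass held. The Zmpste24-/- values lay near the array medians, where the size of a fold change is uncertain. Lmna, which encodes lamin A and lamin C, stood at 7.46, 7.28 and 7.68 against 7.63, 7.62 and 7.30. Its groups overlapped, and the difference of 0.04 ± 0.11 did not pass (adjusted p = 0.884). None of the 20 measured genes of the nuclear lamina and of prelamin A processing passed. This list holds the farnesyltransferase subunits Fnta and Fntb, the prenyl protease Rce1, the methyltransferase Icmt, the B-type lamins and the inner nuclear membrane proteins, and its differences ran from -0.27 (Lemd2) to 0.11 (Tor1a).

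Array medians lay between 5.35 and 5.42, and a group below about this level has an uncertain fold change because no background level was set. Across all genes 1399 passed, 488 higher and 911 lower in Zmpste24-/- lungs, and the median difference of all genes was -0.01. This background of 6.31% passed, 2.2% higher and 4.11% lower, is the yardstick for each list that follows. The 3 arrays of each genotype did not overlap for 23.9% of all genes, and 6.29% both passed and did not overlap. At least a 2-fold change was seen in 95 passed genes, 43 higher and 52 lower. The number of passed genes rested on single arrays: it was 878 (3.96%) without wild type array 2, 906 without Zmpste24-/- array 1 and 646 without Zmpste24-/- array 3, and 786, 807 and 621 of these were among the 1399.

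The tissue label was checked against marker genes. Sftpc, the surfactant protein of alveolar type 2 cells, lay between 13.02 and 13.22 in all 6 arrays, Ager of alveolar type 1 cells between 12.19 and 12.54, and Scgb1a1 of club cells between 13.20 and 13.30. None of 15 type 2, 13 type 1 or 14 club and secretory airway genes passed. Among 19 ciliated cell genes 1 passed, Fam183b, 0.58 higher (adjusted p = 0.0175), a pass lost without wild type array 1 or 2 or Zmpste24-/- array 1 or 3, with adjusted p up to 0.0698. The count was 4 without wild type array 3, among them Cfap126 (0.59), Sntn (0.63) and Tekt4 (0.62), and 2 without Zmpste24-/- array 2. No pass was seen among markers of lymphatic endothelium (6 genes), basal, squamous and mesothelial cells (13), thymocytes (6), red cells (3), mast cells, basophils and eosinophils (13), cartilage (10) or nerve (7). The summed linear level of 12 cardiac muscle genes was uneven within both groups, 3460 to 6110 in wild type and 1340 to 5450 in Zmpste24-/- arrays. None passed with all arrays, and Actc1 (-1.59, adjusted p = 0.0325) and Myh6 (-2.22, 0.049) were lower without Zmpste24-/- array 1. Likewise none of 14 adipocyte genes passed with all arrays, with sums of 4060 to 4950 and 4270 to 8190, though up to 6 were higher with 1 array left out. Skeletal muscle genes passed for 2 of 12 (Acta1 0.43, Mylpf 0.36), both lost when 1 array was left out, with adjusted p up to 0.161 and 0.165.

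**Figure D1:**
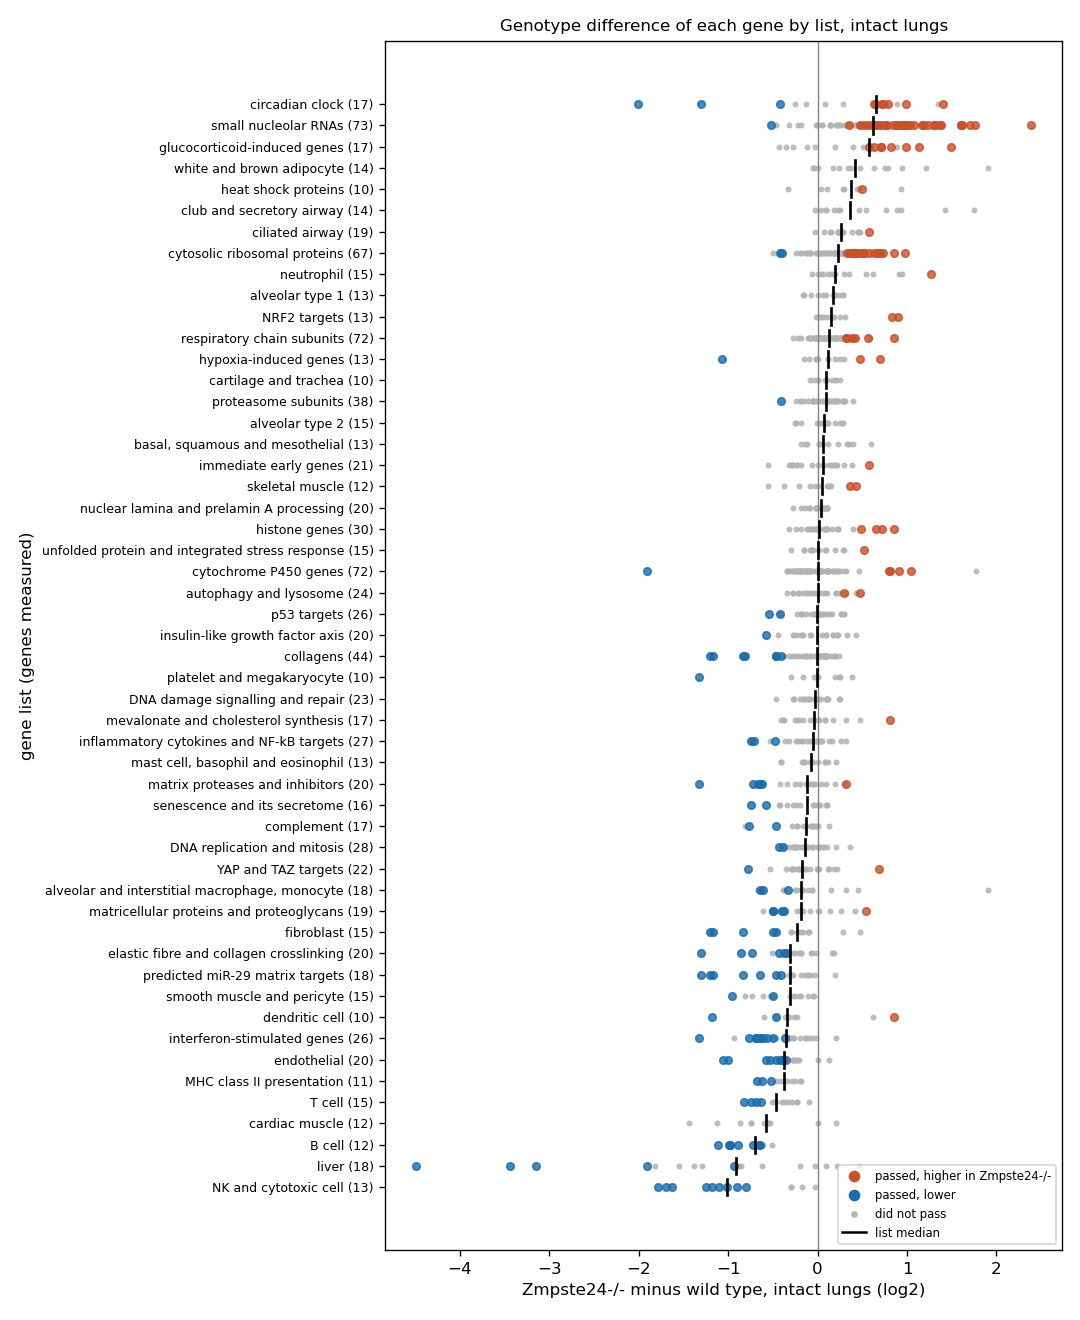
Difference between Zmpste24-/- and wild type intact lungs (log2, horizontal axis) for every measured gene of each list with at least 10 members, microRNAs left out; coloured points passed (orange higher, blue lower), grey points did not, and black bars are list medians. Clock, small nucleolar RNA and glucocorticoid-induced genes lie at the top with medians of 0.65, 0.62 and 0.57, and NK cell, liver and B cell genes at the bottom with medians of -1.01, -0.91 and -0.70.

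Genes of the circadian clock differed in both directions: the activator Arntl was 4.03-fold lower, and Per1, Per3, Cry1 and Cry2 were higher. The mammalian clock is a feedback loop in which ARNTL (BMAL1) with CLOCK or NPAS2 activates genes through E-boxes, among them the Per and Cry genes, whose proteins then repress the activators. Rev-erb and ROR receptors compete at ROR elements, including those of Arntl, and the PAR bZIP factors Dbp, Tef and Hlf act at D-boxes. Of 17 measured clock genes, which did not include Per2, 7 were higher and 3 lower in Zmpste24-/- lungs, with a list median of 0.65. Proximal promoters of 5 genes that passed are shown because the loop works through these elements. Each window is the 250 bases before the RefSeq start site in GRCm38.p6, written 5′ to 3′ on the gene's strand, with the matched element in capitals. Where a gene had several windows, the one with the most matches of the element was picked to be shown. All 10 genes that passed had a window in the RefSeq table.

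The window of Arntl lies at chr7:113207215-113207464 (plus strand) and holds ROR pattern matches that begin at -200 and -181 from the start site. Those of Per1 at chr11:69098699-69098948 (plus strand), Cry1 at chr10:85185055-85185304 (minus strand) and Ciart at chr3:95882229-95882478 (minus strand) hold E-boxes. That of Per3 at chr4:151044666-151044915 (minus strand) holds a pair of D-boxes.
Arntl: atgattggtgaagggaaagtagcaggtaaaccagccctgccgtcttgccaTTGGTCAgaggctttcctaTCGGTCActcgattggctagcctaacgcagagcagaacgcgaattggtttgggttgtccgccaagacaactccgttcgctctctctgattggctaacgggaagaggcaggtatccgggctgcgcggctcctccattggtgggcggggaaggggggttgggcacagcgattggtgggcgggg
Per1: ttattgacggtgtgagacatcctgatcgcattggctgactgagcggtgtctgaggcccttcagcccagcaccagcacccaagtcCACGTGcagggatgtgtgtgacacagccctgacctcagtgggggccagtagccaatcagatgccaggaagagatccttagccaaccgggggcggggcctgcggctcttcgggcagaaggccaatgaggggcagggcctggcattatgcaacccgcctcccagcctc
Cry1: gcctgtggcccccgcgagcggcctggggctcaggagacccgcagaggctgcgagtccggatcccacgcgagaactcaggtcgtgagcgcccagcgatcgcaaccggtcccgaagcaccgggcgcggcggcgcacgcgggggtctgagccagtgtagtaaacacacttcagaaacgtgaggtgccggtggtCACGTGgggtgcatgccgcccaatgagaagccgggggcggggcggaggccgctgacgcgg
Ciart: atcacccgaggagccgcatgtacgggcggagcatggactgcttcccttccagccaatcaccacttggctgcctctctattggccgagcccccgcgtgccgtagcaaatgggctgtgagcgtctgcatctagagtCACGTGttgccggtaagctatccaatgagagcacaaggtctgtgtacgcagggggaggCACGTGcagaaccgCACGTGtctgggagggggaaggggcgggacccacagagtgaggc
Per3: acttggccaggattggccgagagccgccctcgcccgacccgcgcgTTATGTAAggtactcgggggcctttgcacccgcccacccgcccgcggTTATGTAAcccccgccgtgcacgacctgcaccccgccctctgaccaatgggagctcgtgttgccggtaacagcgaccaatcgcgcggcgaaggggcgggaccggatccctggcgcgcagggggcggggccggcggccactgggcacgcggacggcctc
The E-box was searched as CACGTG, which reads the same on both strands. It occurred in 4 of the 7 higher clock genes (Ciart, Cry1, Per1 and Tef), in 0 of the 3 lower ones, and in 6.02% of all 32851 windows of this length. The D-box, searched as TTATGTAA on both strands, occurred in Per3 alone among the 10, and in 0.819% of all windows. The ROR pattern TNGGTCA, with N any base, matched on either strand in Arntl, in 3 higher genes (Cry2, Per3 and Tef) and in 9.19% of all windows. It is short, and the longer ROR element was not searched, so its matches may not be ROR elements. A gene with several windows was counted if any of them matched, while the percentages are of single windows, so the measures are unlike. Clock genes that did not pass were not searched, so the counts cannot tie an element to the genotype difference. A match describes letters in this window and not a bound site.

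In the activating arm, Arntl stood at 7.47, 8.49 and 8.06 in wild type and at 5.86, 6.16 and 5.99 in Zmpste24-/- lungs. Every Zmpste24-/- array lay more than 1 log2 unit below the lowest wild type array. Arntl was 4.03-fold lower (-2.01 ± 0.26, adjusted p = 0.00105), and the pass held. Its partner Npas2 stood at 6.96, 8.33 and 7.95 against 6.57, 6.52 and 6.24 (-1.30 ± 0.32, adjusted p = 0.0295), and Clock at 10.23, 10.44 and 10.25 against 9.86, 9.88 and 9.93 (-0.42 ± 0.10, adjusted p = 0.0245). Both had separate groups, but neither pass held. Npas2 did not pass without wild type array 2 (adjusted p = 0.112), wild type array 3 (0.0828) or Zmpste24-/- array 1 (0.0603), 2 (0.0609) or 3 (0.109). Clock did not pass without wild type array 2 (0.0924) or Zmpste24-/- array 1 (0.0725), 2 (0.063) or 3 (0.065). The count of lower clock genes was therefore 1 without any of these 4 arrays.

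The repressor arm moved the other way. Per1 stood at 9.38, 8.79 and 9.46 in wild type and 10.23, 10.28 and 10.09 in Zmpste24-/- lungs, a rise of 0.99 ± 0.14 (adjusted p = 0.00159). Per3 stood at 8.19, 6.94 and 7.21 against 8.98, 8.77 and 8.80 (1.40 ± 0.28, adjusted p = 0.00981). Cry1 stood at 6.44, 6.39 and 6.29 against 7.12, 7.22 and 6.95 (0.72 ± 0.13, adjusted p = 0.00638). For all 3 genes the groups were separate, and each pass held. Cry2 rose by 0.73 ± 0.14 (adjusted p = 0.00734) and held. Ciart, a repressor of the CLOCK and BMAL1 pair, was higher by 0.63 ± 0.14 (adjusted p = 0.0188) but did not pass without wild type array 2 (0.0766), Zmpste24-/- array 1 (0.0686) or Zmpste24-/- array 3 (0.0658).

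Among the output factors Tef rose by 0.79 ± 0.14 (adjusted p = 0.00599) and held, while its other probe differed by 0.34. Hlf was 0.65 ± 0.14 higher (adjusted p = 0.0175), and not past the threshold without wild type array 2 (0.0604) or Zmpste24-/- array 1 (0.07). Dbp stood at 9.45, 7.45 and 7.94 in wild type and 9.81, 9.44 and 9.64 in Zmpste24-/- lungs. Its groups overlapped, since wild type array 1 lay just above the lowest Zmpste24-/- array, and the difference of 1.35 ± 0.39 did not pass (adjusted p = 0.0593). The Rev-erb genes Nr1d1 (-0.13 ± 0.31, adjusted p = 0.867) and Nr1d2 (0.89 ± 0.27, adjusted p = 0.0667) did not pass either, nor did Nfil3 (-0.25), Rora (0.08), Bhlhe40 (0.28) and Bhlhe41 (0.76). Without wild type array 1, Dbp (1.93, adjusted p = 0.00245), Nr1d2 (1.22, 0.0129) and Bhlhe41 (1.08, 0.0104) passed as higher. Wild type arrays spread widely for this group of genes: array 1 was the highest of the 3 for Dbp, Per3, Nr1d1, Nr1d2 and Bhlhe41 and the lowest for Arntl and Npas2.

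**Figure D2:**
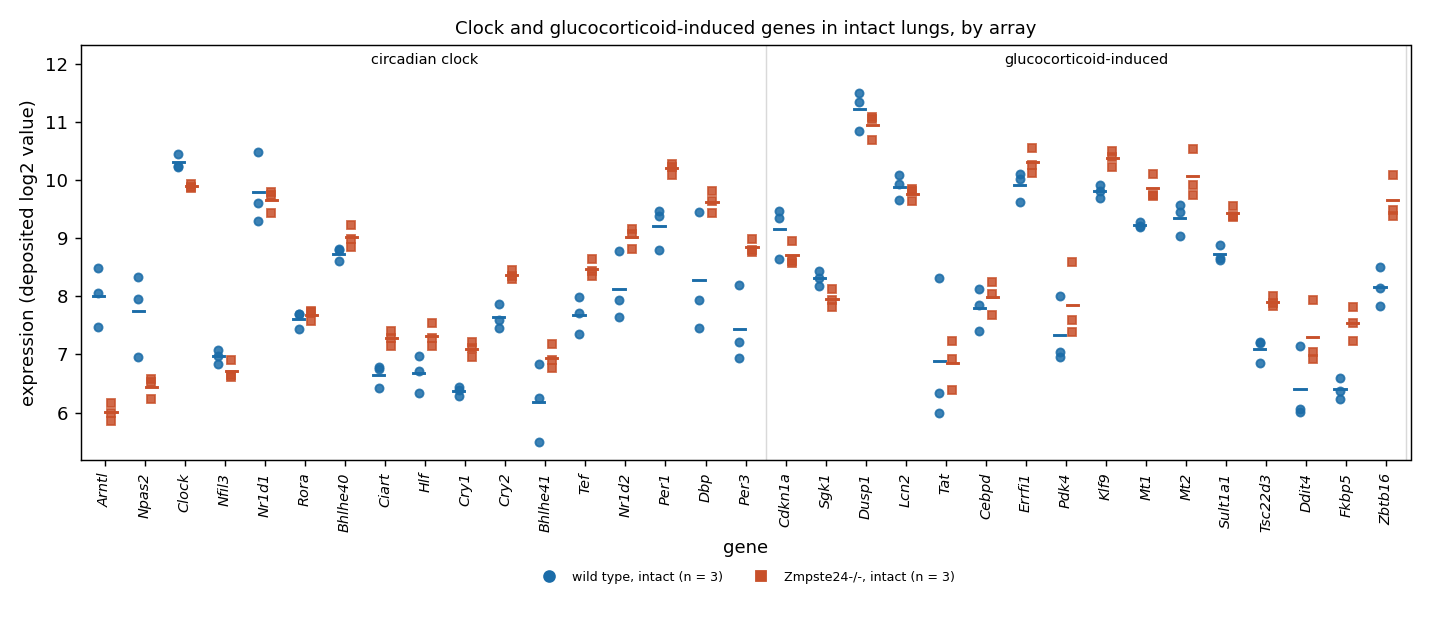
Deposited log2 values (vertical axis) of 17 clock genes and of the other glucocorticoid-induced genes in each intact array, ordered by difference; circles are wild type, squares Zmpste24-/-, and bars are group means of 3 arrays. Arntl lies between 7.47 and 8.49 in wild type and between 5.86 and 6.16 in Zmpste24-/- lungs, while Per1 and Zbtb16 lie higher in every Zmpste24-/- array.

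Genes induced by glucocorticoids were higher. Glucocorticoids act through a nuclear receptor that switches on a set of genes in most tissues, the lung included. Of 17 measured genes in this list 8 were higher and 0 lower, with a median of 0.57, and 7 were higher without wild type array 2. The first by size was Zbtb16, a zinc finger transcription factor, at 7.84, 8.14 and 8.51 in wild type and 10.08, 9.49 and 9.39 in Zmpste24-/- lungs (1.49 ± 0.21, adjusted p = 0.00161). Fkbp5, a chaperone that dampens the receptor, stood at 6.38, 6.23 and 6.59 against 7.82, 7.55 and 7.24 (1.14 ± 0.17, adjusted p = 0.00234). Tsc22d3 (GILZ), an anti-inflammatory target, stood at 6.86, 7.22 and 7.19 against 8.0, 7.89 and 7.84 (0.82 ± 0.12, adjusted p = 0.00221). No array of one genotype overlapped the other for these 3 genes.

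The sulfotransferase Sult1a1 (0.71 ± 0.11), the metallothionein Mt1 (0.63 ± 0.11) and the transcription factor Klf9 (0.57 ± 0.10) rose with adjusted p of 0.00224, 0.00466 and 0.00599. Per1, counted in the clock list as well, is the seventh member, and all 7 passes held. The eighth, Mt2 (0.71 ± 0.19, adjusted p = 0.0371), did not pass without wild type array 1 (0.0682), wild type array 2 (0.137), Zmpste24-/- array 1 (0.111) or Zmpste24-/- array 2 (0.0515). Members that did not pass included Sgk1 (-0.35, adjusted p = 0.0627), Dusp1 (-0.28, adjusted p = 0.308), Cdkn1a (-0.43, adjusted p = 0.227) and Ddit4 (0.89, adjusted p = 0.0777). Each of these passed with 1 array left out: Dusp1 (-0.48, adjusted p = 0.0484) and Cdkn1a (-0.68, 0.036) without wild type array 1, Sgk1 (-0.44, 0.0413) without Zmpste24-/- array 2, and Ddit4 (1.26, 0.00831) without wild type array 3. The number of lower members was thus up to 2.

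Many small noncoding RNAs were higher in Zmpste24-/- lungs. Small nucleolar RNAs guide the methylation and pseudouridylation of ribosomal RNA and mostly come from introns of host genes, while U3 and Snord13 assist in cutting and modifying the ribosomal precursor. Of 73 measured small nucleolar RNA genes 39 were higher and 1 lower (Snord53, -0.52), with a median of 0.62. The count of higher genes lay between 33 and 41 with 1 array left out. Snord53 did not pass without wild type array 1, wild type array 3 or any 1 of the Zmpste24-/- arrays, with adjusted p of 0.0604 to 0.0929.

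Snord13 stood at 7.13, 7.60 and 7.46 in wild type and 9.25, 10.14 and 9.97 in Zmpste24-/- lungs, a 5.23-fold rise (2.39 ± 0.20, adjusted p = 8.62e-05). Snora34 stood at 8.78, 9.07 and 8.90 against 10.59, 10.74 and 10.55 (1.71 ± 0.11, adjusted p = 7.36e-06). Snora73a stood at 7.20, 7.06 and 7.24 against 8.60, 8.91 and 8.79 (1.6 ± 0.12, adjusted p = 2.91e-05). These 3 were separated by more than 1 log2 unit between the nearest arrays. Both classes of small nucleolar RNA were represented: Snora15 (1.61) and Snora28 (1.76) carry the H/ACA box, and Snord70 (1.6) and Snord73b (1.38) the C/D box. Copies of one small nucleolar RNA at several loci can share probes, so the locus of origin is uncertain.

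Further small RNAs moved alongside. Rnu3a, a U3 RNA, stood at 6.26, 5.97 and 5.42 in wild type and 7.85, 8.21 and 7.5 in Zmpste24-/- lungs (1.97 ± 0.25, adjusted p = 0.000854). Scarna6, a guide RNA of the Cajal body, stood at 7.79, 7.63 and 7.83 against 9.53, 9.92 and 9.56 (1.92 ± 0.17, adjusted p = 8.62e-05). The Y RNAs Rny1 and Rny3, which bind the Ro protein, rose by 1.46 ± 0.20 (adjusted p = 0.00156) and 1.38 ± 0.24 (adjusted p = 0.00526). The 5S ribosomal RNA gene n-R5s136 stood at 10.40, 11.12 and 10.40 against 11.66, 11.82 and 11.95 (1.17 ± 0.23, adjusted p = 0.00833). Each of these passes held, and for each the groups were separate. The sources used here give no RNA integrity, and whether it differed between the groups was not tested.

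Genes for cytosolic ribosomal proteins were higher by small amounts. Of 67 measured, 23 were higher and 2 lower, with a median of 0.23. The number of higher genes was 13 without wild type array 1, 12 without wild type array 2, 13 without Zmpste24-/- array 2 and 7 without Zmpste24-/- array 3. The lower genes, Rps23 (-0.42) and Rps14 (-0.40), did not hold, with adjusted p up to 0.104 and 0.16, and numbered 0 without wild type array 1, wild type array 3 or Zmpste24-/- array 1 and 1 without any other. Rps19 stood at 8.74, 8.59 and 8.73 in wild type and 9.43, 9.62 and 9.58 in Zmpste24-/- lungs (0.86 ± 0.08, adjusted p = 0.000156). Rps13 stood at 7.21, 7.32 and 6.77 against 7.82, 8.19 and 8.23 (0.98 ± 0.15, adjusted p = 0.00224). Both held, but other probes of ribosomal genes gave unequal values, 0.39 for another Rps19 probe and -0.34 for another probe of Rps24, whose main probe gave 0.73 and whose mean over probes, 0.33, did not pass (adjusted p = 0.15). Processed copies of these genes are frequent and share sequence, which makes single genes uncertain.

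Ribosomal protein genes often host small nucleolar RNAs in their introns. The 16 measured genes with a small nucleolar RNA inside had 5 higher members and a median of 0.20, and the 51 without one had 18 higher members and a median of 0.24. Ptcd3, a mitochondrial ribosome factor that hosts Snord94, appeared among the largest increases with 8.04, 8.50 and 8.14 in wild type and 9.43, 9.55 and 9.70 in Zmpste24-/- lungs (1.33 ± 0.20, adjusted p = 0.00203). Its other probe differed by -0.07, so its probes disagreed.

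Transcripts of lymphocytes were lower, above all those of NK cells. NK cells are innate lymphocytes that kill through perforin and granzymes, and the lung holds many of them. Of 13 NK and cytotoxic cell genes 9 were lower and 0 higher, with a median of -1.01, and the number of lower genes was 9 or 10 whichever array was left out. The summed linear level of the list was 1760 to 2210 in wild type arrays and 774 to 896 in Zmpste24-/- arrays. In bulk tissue, fewer cells of a type and less RNA per cell cannot be told apart.

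Gzma, a granzyme, stood at 7.01, 7.75 and 7.31 in wild type and 5.89, 5.57 and 5.27 in Zmpste24-/- lungs (-1.78 ± 0.23, adjusted p = 0.000946). The activating receptor Ncr1 (NKp46) stood at 7.08, 8.08 and 7.14 against 6.05, 5.50 and 5.66 (-1.69 ± 0.22, adjusted p = 0.00105). The chemokine Ccl5 stood at 9.47, 9.67 and 9.20 against 8.17, 7.56 and 7.72 (-1.63 ± 0.14, adjusted p = 8.62e-05). All 3 fell without overlap, and the pass of each held. Gzmb (-1.25), the receptors Klrd1 (-1.18), Klre1 (-1.01) and Klrk1 (-0.80), the granule protein Nkg7 (-1.10) and perforin, Prf1 (-0.90), complete the 9, and these passes held too. Receptors of the Klr family resemble each other, so their single values are less certain. The transcription factors Tbx21 (-0.03, adjusted p = 0.924) and Eomes (-0.17, adjusted p = 0.462), with Xcl1 (-0.30, adjusted p = 0.0867) and Klrb1c (-0.30, adjusted p = 0.208), did not pass, though Xcl1 was lower without wild type array 1 (-0.42, adjusted p = 0.0137).

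B cell genes were lower as a list but with less certainty for single genes. Of 12 measured genes 8 were lower and 0 higher, with a median of -0.70 and all 12 differences negative. The number was 2 without wild type array 1, without wild type array 2 or without Zmpste24-/- array 3, and 3 without Zmpste24-/- array 1. Cd22, an inhibitory co-receptor, stood at 8.36, 8.12 and 7.90 in wild type and 6.97, 7.29 and 6.80 in Zmpste24-/- lungs (-1.11 ± 0.18, adjusted p = 0.00312). The kinase Blk stood at 7.63, 7.37 and 7.05 against 6.25, 6.62 and 6.25 (-0.98 ± 0.15, adjusted p = 0.00224). These passes held. The remaining 6, Cd79a (-0.99), Ms4a1 or CD20 (-0.98), Pax5 (-0.89), Ebf1 (-0.72), Fcmr (-0.65) and Fcer2a (-0.64), passed with all arrays but not without Zmpste24-/- array 3, where their adjusted p was 0.0649, 0.0671, 0.0679, 0.105, 0.111 and 0.147.

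T cell genes gave 4 lower of 15 and 0 higher, with a median of -0.47. Cd4 stood at 6.80, 7.08 and 6.82 in wild type and 6.01, 6.31 and 5.92 in Zmpste24-/- lungs (-0.82 ± 0.15, adjusted p = 0.00721). Cd3e, a chain of the T cell receptor complex, stood at 8.45, 8.52 and 8.09 against 7.83, 7.71 and 7.28 (-0.75 ± 0.15, adjusted p = 0.00912). Both were lower in every Zmpste24-/- array, and both passes held. Cd8a (-0.69, adjusted p = 0.0141) did not pass without wild type array 1 (0.0571) or Zmpste24-/- array 3 (0.0644), and Lef1 (-0.63, adjusted p = 0.0126) not without Zmpste24-/- array 3 (0.0565). The count was 8 without wild type array 3 and 2 without Zmpste24-/- array 3.

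The genes of antigen presentation by MHC class II, expressed by B cells, dendritic cells and macrophages, gave 3 lower of 11 and 0 higher. Ciita, the master regulator of the class, stood at 8.23, 7.91 and 7.81 against 7.38, 7.37 and 7.34 (-0.62 ± 0.12, adjusted p = 0.00803) and held. H2-Ob (-0.68) and H2-Ab1 (-0.52) did not pass without Zmpste24-/- array 3, with adjusted p of 0.0844 and 0.0764, nor without wild type array 1, with 0.067 and 0.0619. H2-Ob also failed without wild type array 2 (0.0706), and H2-Ab1 without Zmpste24-/- array 2 (0.0536). The list count was 1 without wild type array 1 or Zmpste24-/- array 3, 2 without wild type array 2 and 5 without wild type array 3. B cell transcripts fell in the same arrays, and their part in these values was not tested.

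**Figure D3:**
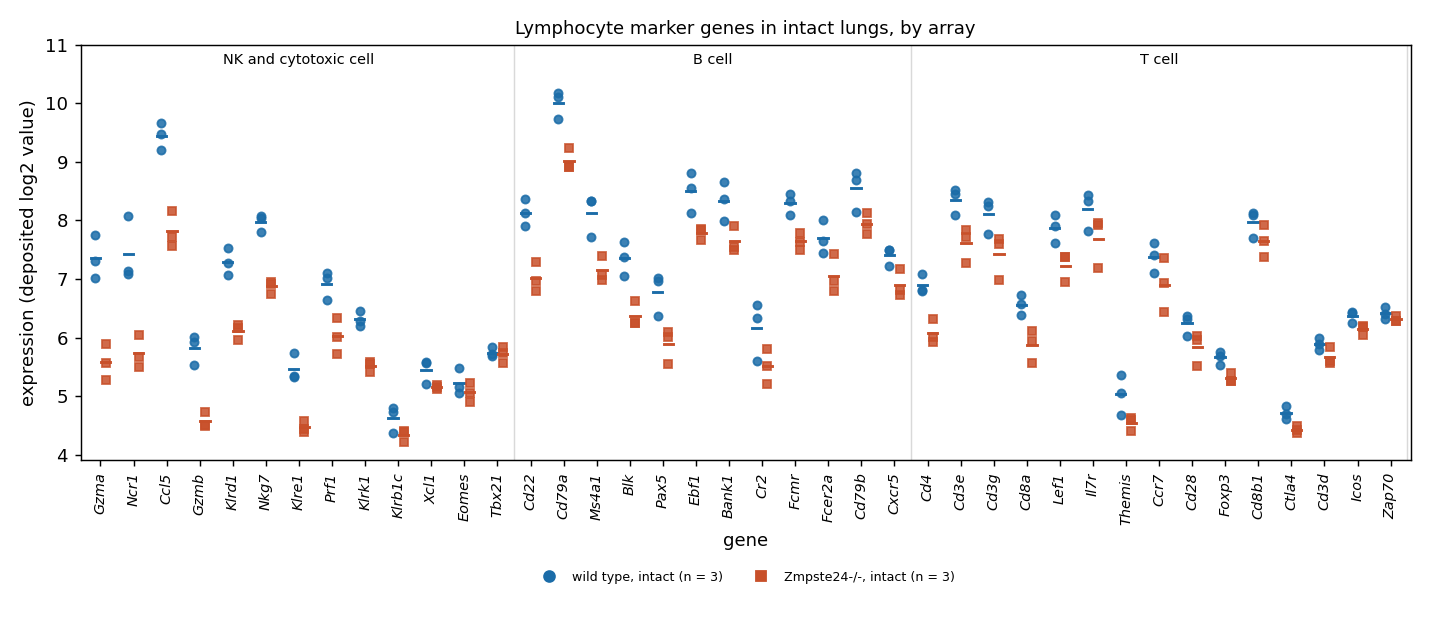
Deposited log2 values (vertical axis) of NK and cytotoxic cell, B cell and T cell marker genes in each intact array, ordered within a list by difference; circles are wild type, squares Zmpste24-/-, and bars are group means of 3 arrays. Gzma, Ccl5 and Cd22 lie lower in every Zmpste24-/- array, whereas Tbx21 overlaps between the genotypes.

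Among myeloid cells the picture was mixed. Of 18 macrophage and monocyte genes 3 were lower: the integrin Itgax (-0.64 ± 0.12, adjusted p = 0.00686), the lysosomal protein Cd68 (-0.61 ± 0.11, adjusted p = 0.00521) and the growth factor receptor Csf1r (-0.33, adjusted p = 0.044). The first pair held, and Csf1r did not pass without wild type array 1 (0.145), wild type array 2 (0.0918), or Zmpste24-/- array 1 (0.125), 2 (0.0625) or 3 (0.122). The count was 5 without wild type array 3. Adgre4, a receptor of myeloid cells, stood at 8.23, 8.16 and 7.36 in wild type and 6.50, 6.74 and 6.41 in Zmpste24-/- lungs (-1.36 ± 0.27, adjusted p = 0.00909). Ms4a4c fell by 1.46 on the log2 scale (adjusted p = 0.00248), from 6.66, 6.54 and 6.15 to 4.67, 5.44 and 4.86. Its Zmpste24-/- mean lay below the array medians. Among 10 dendritic cell genes Cd209a rose by 0.86 ± 0.16 (adjusted p = 0.00784) and Ccl22, a chemokine, fell by 1.18 on the log2 scale (adjusted p = 0.000178), from 7.19, 7.44 and 7.48 to 6.16, 6.32 and 6.08. Both held, but the 2 probes of Cd209a differed (-0.29 and 0.86), and their mean, 0.28, did not pass (adjusted p = 0.0657). A further lower gene, Fscn1 (-0.46), did not hold, with an adjusted p of up to 0.138, which left 1 lower gene without wild type array 2 or Zmpste24-/- array 3.

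Neutrophil genes gave 1 higher of 15, with a median of 0.19. This was S100a8, a calcium-binding granule protein, at 7.44, 7.17 and 6.59 in wild type and 8.43, 8.72 and 7.86 in Zmpste24-/- lungs (1.27 ± 0.26, adjusted p = 0.011). Stfa2l1, a stefin whose relatives are expressed in neutrophils, had the largest rise of any protein-coding gene named by the rule, from 6.14, 5.73 and 5.08 to 7.61, 8.82 and 7.55 (2.34 ± 0.37, adjusted p = 0.00262). Both groups were separate for these genes, and both passes held. The partner S100a9 (0.91, adjusted p = 0.0562), Cxcr2 (0.35, adjusted p = 0.542) and Csf3r (0.00, adjusted p = 0.998) did not pass, but S100a9 was higher without wild type array 1 (1.16, adjusted p = 0.0295) or Zmpste24-/- array 3 (1.17, 0.0332). Stefin genes of this cluster are near copies, so the value may be shared among them. The summed linear level of the neutrophil list was 1220 to 1700 in wild type and 1340 to 2330 in Zmpste24-/- arrays, and the number of higher members was 5 without Zmpste24-/- array 3 and 2 without wild type array 1.

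Ppbp, the precursor of a platelet chemokine, stood at 9.57, 9.57 and 9.76 in wild type and 8.37, 8.31 and 8.22 in Zmpste24-/- lungs (-1.33 ± 0.17, adjusted p = 0.000946), and the pass held. It was the only one of 10 platelet and megakaryocyte genes to pass. Of the others 4 had positive differences, among them Pf4 (0.25, adjusted p = 0.241), Itga2b (0.19, adjusted p = 0.221) and Gp9 (0.39, adjusted p = 0.146).

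Interferon-stimulated genes were lower in Zmpste24-/- lungs. These genes encode antiviral proteins and are switched on by interferon signalling at an element of repeated GAAA motifs. Of 26 measured genes 10 were lower and 0 higher, with a median of -0.35. The number was 6 without wild type array 1, without wild type array 2 or without Zmpste24-/- array 3. Oas2, a sensor of double-stranded RNA, stood at 8.04, 7.94 and 7.89 in wild type and 6.92, 6.46 and 6.50 in Zmpste24-/- lungs (-1.33 ± 0.12, adjusted p = 8.62e-05). Irf7, the factor that amplifies interferon production, stood at 7.58, 7.54 and 7.46 against 7.05, 6.80 and 6.76 (-0.66 ± 0.09, adjusted p = 0.00159). Rsad2 (viperin) stood at 6.80, 6.66 and 6.95 against 5.90, 6.03 and 6.43 (-0.69 ± 0.14, adjusted p = 0.0101).

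The arrays of the 2 genotypes were separate for these 3 genes, and their passes held, as did those of Xaf1 (-0.63), Rtp4 (-0.61) and Mx2 (-0.57). Mx2 lay below the array medians in both groups, and the Oas genes resemble each other. Oasl2 (-0.77), Stat2 (-0.69), Bst2 (-0.50) and Oas3 (-0.36) passed with all arrays but not without wild type array 1 (adjusted p of 0.0731, 0.054, 0.125 and 0.0671), wild type array 2 (0.0918, 0.0567, 0.12 and 0.0703) or Zmpste24-/- array 3 (0.0972, 0.066, 0.144 and 0.0541). Oasl2 and Bst2 also failed without Zmpste24-/- array 2 (0.0693 and 0.116), and Oas3 without Zmpste24-/- array 1 (0.0782). Several classical members did not pass, such as Isg15 (-0.31, adjusted p = 0.0743), Ifit1 (-0.26, adjusted p = 0.368), Mx1 (-0.02, adjusted p = 0.938) and Ifit3 (0.21, adjusted p = 0.382).

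Promoter windows of a pair of these genes are shown, each picked for the most matches of the interferon element where a gene had several windows. They lie at chr12:26456453-26456702 (minus strand) for Rsad2 and at chr5:120777660-120777909 (minus strand) for Oas3, as 250 bases before the RefSeq start in GRCm38.p6 on the gene's strand, with the matched letters in capitals.
Rsad2: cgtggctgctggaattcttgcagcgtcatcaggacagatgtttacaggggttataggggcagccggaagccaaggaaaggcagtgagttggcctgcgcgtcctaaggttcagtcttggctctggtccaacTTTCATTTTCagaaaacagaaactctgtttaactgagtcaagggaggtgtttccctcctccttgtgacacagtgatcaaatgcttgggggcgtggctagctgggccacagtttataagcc
Oas3: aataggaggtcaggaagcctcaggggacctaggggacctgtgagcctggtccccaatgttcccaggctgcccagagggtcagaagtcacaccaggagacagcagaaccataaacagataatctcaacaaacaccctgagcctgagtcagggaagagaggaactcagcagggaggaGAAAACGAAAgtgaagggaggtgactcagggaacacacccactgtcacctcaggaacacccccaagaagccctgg
The element was searched on both strands as GAAA, any 2 bases and GAAA, and the match in Rsad2 is on the opposite strand. It was found in 4 of the 7 lower genes that had a window (Bst2, Oas3, Rsad2 and Stat2) and in 2.98% of all 32851 windows. Here too a gene was counted if any of its windows matched, while the percentage is of single windows. Interferon-stimulated genes that did not pass were not searched, so the count cannot tie the element to the decrease.

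Genes of the extracellular matrix were lower. The lung interstitium is held by fibrillar collagens and by elastic fibres, which fibroblasts and smooth muscle cells build from elastin, microfibril proteins and lysyl oxidases. Of 44 collagen genes 7 were lower and 0 higher, with a median of -0.01, so the decrease touched certain chains. The count lay between 5 and 7 with 1 array left out. Col3a1 stood at 9.10, 9.18 and 9.48 in wild type and 8.0, 8.25 and 7.92 in Zmpste24-/- lungs (-1.20 ± 0.16, adjusted p = 0.00136). Col1a1 stood at 9.72, 9.75 and 10.17 against 8.82, 8.86 and 8.44 (-1.17 ± 0.13, adjusted p = 0.000413), and Col1a2 at 9.04, 9.07 and 9.28 against 8.38, 8.33 and 8.17 (-0.83 ± 0.09, adjusted p = 0.000362).

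These are the chains of the fibril-forming collagens I and III, and all were lower in every Zmpste24-/- array. The other probe of Col1a2 differed by 0.04, and the mean of its probes by -0.40 (adjusted p = 0.0131). Their passes held, with those of Col6a3 (-0.81 ± 0.15, adjusted p = 0.00769) and Col13a1 (-0.46 ± 0.09, adjusted p = 0.012). The collagen V chains Col5a2 (-0.47) and Col5a1 (-0.41) did not hold, with adjusted p of 0.0968 and 0.147 without Zmpste24-/- array 3 and 0.0618 and 0.109 without wild type array 2. The other probe of Col5a1 differed by 0.20. Basement membrane chains did not pass, for example Col4a1 (-0.32, adjusted p = 0.129), Col4a2 (-0.14, adjusted p = 0.521) and Col4a3 (-0.02, adjusted p = 0.957).

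In the elastic fibre and crosslinking list 6 of 20 genes were lower and 0 higher, with a median of -0.31, and 3 were lower without Zmpste24-/- array 2 or without Zmpste24-/- array 3. Eln, elastin itself, stood at 8.77, 9.38 and 9.44 in wild type and 7.90, 8.10 and 7.70 in Zmpste24-/- lungs (-1.30 ± 0.21, adjusted p = 0.00305). The crosslinking enzyme Loxl1 stood at 9.28, 9.55 and 9.76 against 8.70, 8.82 and 8.48 (-0.86 ± 0.13, adjusted p = 0.00248), and the microfibril protein Mfap4 at 9.94, 10.12 and 10.06 against 9.44, 9.24 and 9.23 (-0.73 ± 0.13, adjusted p = 0.00543). The passes of these 3 held. Loxl3 (-0.43), Ltbp2 (-0.37) and Ltbp1 (-0.34) did not hold, with adjusted p up to 0.136, 0.0972 and 0.107. Loxl3 and Ltbp1 failed without wild type array 2 (0.0726 and 0.107). Lox (-0.06, adjusted p = 0.875), Fbln5 (-0.25, adjusted p = 0.217) and Efemp1 (-0.07, adjusted p = 0.859) did not pass.

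Matrix proteases fell too. Mmp2, gelatinase A, stood at 9.36, 9.54 and 10.12 in wild type and 8.41, 8.47 and 8.15 in Zmpste24-/- lungs (-1.33 ± 0.17, adjusted p = 0.00083). Its membrane-bound activator Mmp14 stood at 9.37, 9.47 and 9.67 against 8.73, 8.98 and 8.66 (-0.72 ± 0.12, adjusted p = 0.00309). With Adamts10 (-0.67), Adamts1 (-0.62) and Adamts9 (-0.64), 5 of 20 protease and inhibitor genes were lower. All but Adamts9 held, and its adjusted p was 0.147 without Zmpste24-/- array 3 and 0.112 without wild type array 2. The inhibitor Timp3 (0.32, adjusted p = 0.044) was higher and did not pass with any 1 array left out.

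Of 19 matricellular proteins and proteoglycans 4 were lower and 1 higher. Postn, periostin, stood at 10.41, 10.45 and 10.48 against 9.93, 9.85 and 10.06 (-0.50 ± 0.08, adjusted p = 0.00341), and Npnt, nephronectin (-0.50 ± 0.09, adjusted p = 0.00724) fell with it. Fn1 (-0.40), Hspg2 (-0.37) and Omd (0.54) did not hold, with adjusted p of 0.0988, 0.116 and 0.0581 without Zmpste24-/- array 3. The number of lower members was 2 without wild type array 2, wild type array 3, Zmpste24-/- array 1 or Zmpste24-/- array 3. Spon2, a matrix protein with a role in innate immunity, fell by 1.56 on the log2 scale (adjusted p = 0.00594), from 7.83, 8.70 and 8.86 to 7.10, 7.09 and 6.51.

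Markers of the cells that make the matrix overlap with the matrix genes already described. Of 15 fibroblast markers 5 were lower, namely Col13a1, Npnt and the 3 chains of collagens I and III, all matrix genes. The other 10 did not pass, and the summed linear level was 16900 to 17700 in wild type and 14900 to 15500 in Zmpste24-/- arrays. Pdgfrb, the growth factor receptor of pericytes and fibroblasts, stood at 10.15, 10.05 and 9.94 against 9.16, 9.17 and 8.93 (-0.96 ± 0.12, adjusted p = 0.00076). It was 1 of 2 lower genes, with Postn, among 15 smooth muscle and pericyte markers, a list that had 4 lower without Zmpste24-/- array 1. The summed level of that list was 7970 to 9130 in wild type and 5050 to 7430 in Zmpste24-/- arrays. The part of cell numbers in the matrix values was not tested.

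**Figure D4:**
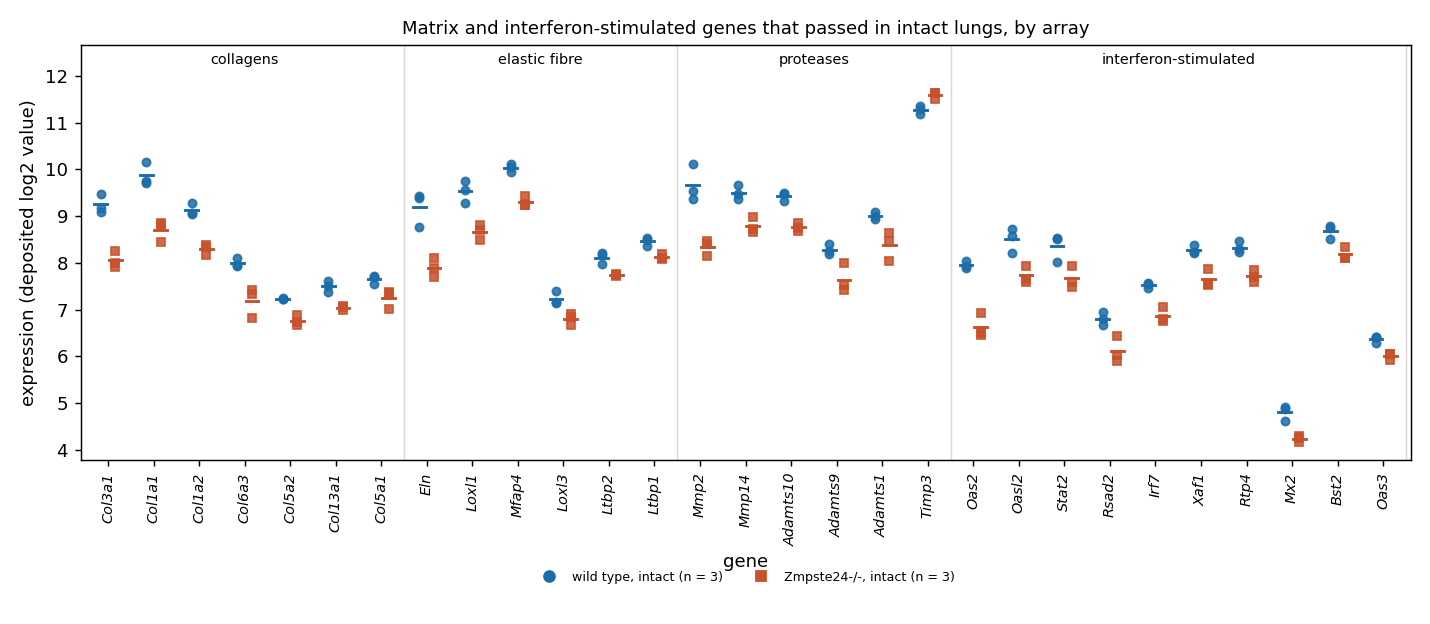
Deposited log2 values (vertical axis) in each intact array of the collagen, elastic fibre, protease and interferon-stimulated genes that passed; circles are wild type, squares Zmpste24-/-, and bars are group means of 3 arrays. All genes shown lie lower in Zmpste24-/- lungs except Timp3 (0.32).

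Endothelial markers were lower by modest amounts. The lung is rich in capillary endothelium, and 9 of 20 markers were lower and 0 higher, with a median of -0.37. The number was 4 without wild type array 2, Zmpste24-/- array 1 or Zmpste24-/- array 3, and 5 without Zmpste24-/- array 2. The apelin receptor Aplnr stood at 8.0, 8.39 and 8.50 in wild type and 7.28, 7.62 and 6.84 in Zmpste24-/- lungs (-1.06 ± 0.19, adjusted p = 0.00652). Plvap, the diaphragm protein of fenestrae and caveolae, stood at 10.39, 10.94 and 10.86 against 9.45, 9.97 and 9.76 (-1.0 ± 0.17, adjusted p = 0.0042). Emcn (-0.53 ± 0.10, adjusted p = 0.00863) fell as well, and these 3 passes held.

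Further members that passed with all arrays did not hold. Tie1 (-0.40) reached an adjusted p of 0.055 without Zmpste24-/- array 3. The highest adjusted p for Sox17 (-0.58) and Kdr (-0.47) came without wild type array 2, at 0.0888 and 0.135. For Eng (-0.42) and Cdh5 (-0.35) it came without Zmpste24-/- array 1, at 0.10 and 0.0879, and for Ednrb (-0.39) without wild type array 1, at 0.143. Pecam1 (-0.28, adjusted p = 0.08), Vwf (-0.24, adjusted p = 0.0848) and Flt1 (0.00, adjusted p = 0.998) did not pass. The summed linear level of the endothelial list was 25600 to 27400 in wild type and 19400 to 21200 in Zmpste24-/- arrays.

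Transcripts typical of liver were lower, and here 1 wild type array stood apart. Albumin, the major urinary proteins and apolipoproteins are made chiefly by hepatocytes. Alb stood at 8.12, 11.52 and 9.18 in wild type and 6.04, 6.39 and 6.07 in Zmpste24-/- lungs (-3.44 ± 0.65, adjusted p = 0.0073). Mup20 stood at 6.2, 10.05 and 6.44 against 3.23, 3.12 and 2.88 (-4.49 ± 0.77, adjusted p = 0.00452), and Mup3 at 4.92, 8.67 and 6.94 against 3.64, 3.66 and 3.75 (-3.15 ± 0.66, adjusted p = 0.0127). Wild type array 2 was the highest for all 3, by more than 1 log2 unit, and the Zmpste24-/- arrays were the lowest.

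Without that array the differences were -2.49 for Alb (adjusted p = 0.0112), -3.24 for Mup20 (0.00224) and -2.24 for Mup3 (0.0281), and the passes held. The Mup genes are near-identical copies, so a value may be shared among them, and both Mup groups in Zmpste24-/- lungs lay below the array medians. Cyp4a14, a fatty acid hydroxylase, was at 4.46, 7.43 and 4.82 against 3.62, 3.90 and 3.47. Its difference of -1.91 became -0.98 without wild type array 2, and it did not pass without Zmpste24-/- array 1 (adjusted p = 0.105), 2 (0.0783) or 3 (0.141). Pzp, a protease-trapping plasma protein, moved from -1.41 to -0.78 and no longer passed (adjusted p = 0.0544). It did not pass without wild type array 3 (0.0507) or Zmpste24-/- array 1 (0.0903), 2 (0.111) or 3 (0.123) either. Of 18 liver genes 5 were lower: Alb, Mup20, Mup3, Cyp4a14 and Apoa1, and Pzp was not on this list. Apoa1 (-0.93, adjusted p = 0.019) did not pass without wild type array 2 (0.078) or Zmpste24-/- array 1 (0.0567) or 3 (0.0688). The count was 4 without wild type array 2, 10 without wild type array 1 and 3 without Zmpste24-/- array 1 or 3. The summed linear level of the list was 3670 to 9270 in wild type and 3580 to 5050 in Zmpste24-/- arrays. The part of liver RNA in other results was not tested. Beside the passes given elsewhere as lost without wild type array 2, those of Cd79a (adjusted p = 0.0607), Ms4a1 (0.0605), Pax5 (0.0582), Ebf1 (0.082), Fcmr (0.0782) and Fcer2a (0.0739) were lost without it. So were those of Cdh5 (0.0578), Eng (0.0977), Ednrb (0.102), Fn1 (0.0585), Hspg2 (0.0645), Il1a (0.0796), Rel (0.113), Ccnb2 (0.0607), Rps14 (0.0557), Acta1 (0.085) and Mir5123 (0.051).

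Several enzymes and regulators outside these lists were among the 15 largest increases. Akr1c14, an aldo-keto reductase that acts on steroids, stood at 8.15, 8.06 and 8.10 in wild type and 9.86, 9.49 and 9.43 in Zmpste24-/- lungs (1.49 ± 0.15, adjusted p = 0.000168). Wee1, the kinase that holds cells before mitosis and is under clock control in liver, stood at 7.13, 6.54 and 6.33 against 8.29, 7.90 and 7.79 (1.33 ± 0.19, adjusted p = 0.00161). Sytl5, a protein of vesicle transport, stood at 5.30, 5.33 and 5.36 against 6.77, 6.45 and 6.39 (1.20 ± 0.10, adjusted p = 8.62e-05).

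The 3 were separate between genotypes and held, though Sytl5 in wild type lungs lay just below the array medians. The sulfotransferase Sult1d1 (1.82 ± 0.47, adjusted p = 0.0354) ranged from 5.77 to 8.03 in wild type and from 8.15 to 9.07 in Zmpste24-/- lungs. It did not pass without wild type array 1 (0.0815), wild type array 2 (0.117), Zmpste24-/- array 1 (0.106) or Zmpste24-/- array 3 (0.123). Chp1 (1.6 ± 0.44, adjusted p = 0.0453) lay below the array medians in wild type, and did not pass without wild type array 1 (0.0928), wild type array 3 (0.142) or Zmpste24-/- array 1 (0.12), 2 (0.0598) or 3 (0.134).

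Programmes often studied in progeroid mice passed at shares on both sides of the 6.31% background. These were 7.69% for p53 targets, 12.5% for senescence, 11.1% for cytokine and NF-kB targets and 7.14% for replication and mitosis. The insulin-like growth factor axis gave 5%, and DNA damage signalling and repair 0%. Of 26 p53 target genes 2 were lower and 0 higher: Plk2 (-0.54 ± 0.09, adjusted p = 0.0052), a kinase induced by p53, which held, and the death receptor Tnfrsf10b (-0.42, adjusted p = 0.0463), which did not pass without wild type array 2 (0.145), wild type array 3 (0.137) or Zmpste24-/- array 1 (0.0863), 2 (0.134) or 3 (0.10). Cdkn1a, which encodes the p21 inhibitor of the cell cycle, stood at 8.65, 9.35 and 9.46 against 8.61, 8.96 and 8.58 and did not pass (adjusted p = 0.227), though it was lower without wild type array 1 (-0.68, adjusted p = 0.036). Nor did Mdm2 (-0.17, adjusted p = 0.297). None of 23 genes of DNA damage signalling and repair passed, and its smallest adjusted p was 0.107, for H2ax (-0.46).

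The senescence list gave 2 lower of 16, Il1a (-0.74, adjusted p = 0.0341) and Igfbp3 (-0.58 ± 0.13, adjusted p = 0.0156), a binding protein of insulin-like growth factors. Igfbp3 was also the 1 lower gene among 20 of the growth factor axis. Neither held: without Zmpste24-/- array 3 the adjusted p was 0.107 for Il1a and 0.0696 for Igfbp3, and both lists had 0 lower genes. The senescence count was 1 without wild type array 2, wild type array 3 or Zmpste24-/- array 1. Igf1 itself stood at 6.75, 7.27 and 6.71 against 6.62, 6.41 and 6.38 (-0.44 ± 0.15, adjusted p = 0.107). Of 27 cytokine and NF-kB target genes 3 were lower: Il1a again, the subunit Rel (-0.48, adjusted p = 0.0302) and the feedback inhibitor Nfkbie. Only Nfkbie held, at 6.73, 6.6 and 6.54 against 5.92, 5.90 and 5.94 (-0.71 ± 0.11, adjusted p = 0.00313), and it was the 1 lower gene left without wild type array 1, wild type array 2, Zmpste24-/- array 1 or Zmpste24-/- array 3. Among 28 genes of replication and mitosis Bub1 (-0.43) and Ccnb2 (-0.39) were lower, with adjusted p of 0.0371 and 0.0382. These reached 0.123 and 0.152 with 1 array left out, and the count was 0 without wild type array 1 or Zmpste24-/- array 2 and 1 without any other.

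MicroRNA genes passed less often than the background. Of 483 measured, 3 were higher and 13 lower (3.31% against 6.31% of all genes), and the number of lower genes was 0 without Zmpste24-/- array 3. It was 6 without wild type array 1, 8 without wild type array 3, 6 without Zmpste24-/- array 1 and 7 without Zmpste24-/- array 2. The higher count was 0 without wild type array 1 or Zmpste24-/- array 2 and 1 without wild type array 3 or Zmpste24-/- array 3. Array probes for these genes can read the precursor as well as the mature RNA. Of the 16 that passed, 15 had a mature sequence in the RefSeq table, 25 sequences with 25 distinct seeds, so no seed was shared. Mature sequences of 3 of them are shown, from GRCm38.p6, with the seed (bases 2 to 8), which pairs with targets, in capitals: miR-181b-5p at chr1:137966650-137966673 (plus strand), miR-103-3p at chr2:131288103-131288125 (plus strand) and miR-365-3p at chr11:79726467-79726488 (plus strand).
mmu-miR-181b-5p: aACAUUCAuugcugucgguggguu
mmu-miR-103-3p: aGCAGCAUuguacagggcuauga
mmu-miR-365-3p: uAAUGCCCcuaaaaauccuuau
Mir181b-1 stood at 6.87, 5.85 and 6.38 in wild type and 5.42, 5.59 and 4.97 in Zmpste24-/- lungs (-1.04 ± 0.23, adjusted p = 0.016). Mir103-2 stood at 6.39, 5.86 and 6.14 against 5.41, 5.10 and 5.29 (-0.87 ± 0.20, adjusted p = 0.0217), and Mir365-2 at 4.88, 4.98 and 5.27 against 4.32, 4.5 and 4.44 (-0.62 ± 0.14, adjusted p = 0.0159). Groups were separate, but none of these passes held: without Zmpste24-/- array 3 the adjusted p was 0.0766, 0.0666 and 0.0541. Mir181b-1 also failed without wild type array 1 (0.0568), Mir103-2 without wild type array 1 (0.0836), wild type array 3 (0.052) or Zmpste24-/- array 2 (0.073), and Mir365-2 without wild type array 3 (0.0526) or Zmpste24-/- array 1 (0.0589). Mir5123 (-1.05) and Mir1933 (-0.55) likewise did not hold, with adjusted p up to 0.0609 and 0.062. Mir365-2 lay below the array medians in both groups, as did the Zmpste24-/- means of Mir181b-1 and Mir103-2, so their fold changes are uncertain. Of 18 predicted matrix targets of miR-29, 7 were lower and 0 higher, 6 of them collagens or elastin already described, and 4 without wild type array 2, wild type array 3 or Zmpste24-/- array 3.

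The ventilated mice are different animals from the same genotypes, and their arrays show which differences recurred under another condition. There the fit passed 2395 genes (10.8%), 4.72% higher and 6.08% lower. Of the 1399 genes that passed in intact lungs 1239 (88.6%) had the same sign in ventilated lungs. The same direction passed in both for 632 genes, 45.2% of the intact and 26.4% of the ventilated passes, 199 higher and 433 lower. It passed for 586 when the ventilated arrays were fitted alone. Across the 1399 genes the differences in the 2 conditions had a Pearson correlation of 0.79, and across all genes 0.50. Genes are not independent replicates, and the 1399 were chosen on the intact values.

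Lymphocyte, matrix and small RNA differences recurred, at other sizes for some lists. The median was -1.01 in intact and -0.60 in ventilated lungs for NK cell genes, and -0.70 and -1.05 for B cell genes. For small nucleolar RNAs it was 0.62 and 0.29, for collagens -0.01 and -0.05 and for ribosomal protein genes 0.23 and 0.24. In ventilated lungs 9 of 13 NK cell genes, 12 of 12 B cell genes and 10 of 44 collagen genes were lower, and 25 of 73 small nucleolar RNAs and 22 of 67 ribosomal protein genes were higher. Gzma differed by -1.64 (adjusted p = 0.000789), Col3a1 by -1.95 (3.4e-05), Mmp2 by -2.15 (2.36e-05) and Snord13 by 1.73 (0.000275). Oas2 differed by -1.6 (1.63e-05), Ppbp by -1.38 (0.000336), Akr1c14 by 1.41 (0.000142) and Stfa2l1 by 3.40 (0.000163). Liver genes passed for 0 of 18, with Alb at -1.90 (0.0797) and Mup20 at -0.78 (0.593).

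**Figure D5:**
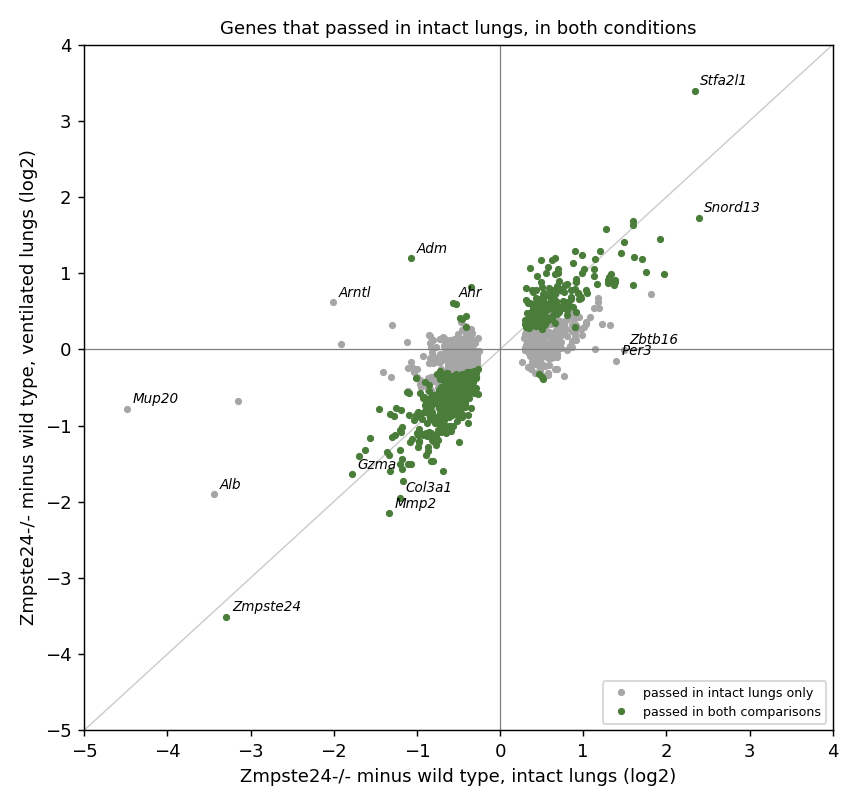
Difference between Zmpste24-/- and wild type in ventilated lungs (vertical axis, log2) against that in intact lungs (horizontal axis, log2) for the 1399 genes that passed in intact lungs; green genes also passed in ventilated lungs, in either direction, grey ones did not, and the diagonal marks equal differences. Most points lie in the lower left and upper right quadrants, and Arntl and Adm lie above 0 on the vertical axis although they fell in intact lungs.

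Of the 17 clock genes 2 passed in ventilated lungs. Cry1 was higher there too (0.78, adjusted p = 0.00245), and Nfil3, which had not passed in intact lungs, was higher by 1.23 (adjusted p = 0.000275). Arntl stood at 7.62, 8.75 and 8.42 in wild type and 9.08, 8.70 and 8.87 in Zmpste24-/- ventilated lungs. These groups overlapped, so the low Arntl of intact Zmpste24-/- lungs was not seen after ventilation, and the genotype difference itself differed between conditions by 2.63 ± 0.37 (interaction, adjusted p = 0.0159). Glucocorticoid-induced genes were higher for 8 of 17 in ventilated lungs, but Zbtb16 differed by 0.00 (adjusted p = 0.996) and Per1 by 0.19 (adjusted p = 0.461).

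The interaction passed for 70 genes (0.316%), of which 17 had also passed in intact lungs. Its count rested on single arrays: 118 without wild type array 1, 17 without wild type array 2, 21 without wild type array 3, and 8, 18 and 21 without Zmpste24-/- array 1, 2 and 3. Adm, the vasodilator peptide adrenomedullin, stood at 6.55, 7.29 and 7.11 in wild type and 5.86, 5.85 and 6.04 in Zmpste24-/- intact lungs, and at 8.06, 7.92 and 8.50 against 9.35, 9.45 and 9.26 in ventilated lungs. The genotype difference was thus -1.07 in intact and 1.19 in ventilated lungs (interaction 2.26 ± 0.25, adjusted p = 0.00401). The aryl hydrocarbon receptor Ahr crossed over likewise, at 9.69, 9.85 and 9.70 against 9.13, 9.25 and 9.16 in intact and 9.47, 9.28 and 9.49 against 9.94, 10.10 and 10.04 in ventilated lungs (interaction 1.18 ± 0.12, adjusted p = 0.00401).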

How the data were processed

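Total RNA of 12 mouse lungs was measured on 1-colour arrays, and the authors deposited log2 expression values normalised with RMA, per the submitters' processing notes, which also name limma. For versions and a genome build: not given in the sources used here. No further normalisation was applied. Of 41345 probes, 23521 had 1 gene symbol in the platform annotation, 1814 several and 16010 none. For each of 22180 genes the probe with the highest mean was kept. limma 3.58.1 in R 4.3.3 was fitted to the 4 groups without covariates (8 residual degrees of freedom), with Benjamini-Hochberg adjustment and a threshold of 0.05. With 3 arrays a group, the number of arrays limits precision, and exact permutation of 1 gene's values could reach no p under 0.1. Tested on simulated data of 22180 genes, the fit recovered 96 of 100 changes of log2 size 1 and 100 of 100 of size 2 in the intact comparison. The simulated noise was independent between genes, with no effect shared across an array, so these rates do not cover such effects.

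The members and gene lists were chosen with earlier results of these data known. Genes were named by a rule: the targeted gene and Lmna, the 15 largest increases and 15 largest decreases without overlap, the 4 list members and up to 5 microRNA and 5 other noncoding genes of smallest adjusted p, 3 liver genes, and up to 10 genes with an interaction. Other members, including those that did not pass, were named after their values were seen. Alternatives changed the genes tested, the scaling, the arrays fitted, the variance model, the array weights and the probe rule, used the replicate number as a block, and left out each intact array. Plots used Python 3.11.15 and matplotlib 3.10.9.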

Additional observations from a re-analysis of the deposited data

Results flagged for a closer look

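For 10 genes that passed in intact lungs, the genotype difference itself differed between ventilated and intact lungs by the interaction term of the limma fit. The values are the difference in ventilated minus that in intact lungs, on the log2 scale. They were 2.63 for Arntl (adjusted p = 0.0159), 2.26 for Adm (0.00401) and 1.18 for Ahr (0.00401). Mest, an imprinted gene, had 0.85 (adjusted p = 0.0388), with -0.68 in intact and 0.16 in ventilated lungs. Cables2 had 0.71 (0.0388), Nabp1 1.13 (0.0388) and Map2k3os 1.17 (0.0046), each lower in intact and higher in ventilated Zmpste24-/- lungs. Etfbkmt had -0.79 (0.0388), Gsdmcl2 -0.91 (0.0313) and the pseudogene Rps15a-ps8 -0.88 (0.0159), each higher in intact and lower in ventilated lungs. The intact passes of Map2k3os and Nabp1 did not hold with 1 array left out (adjusted p up to 0.146 and 0.124, and 0.113 and 0.118 without wild type array 2). Rps15a-ps8 lay below the array medians.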

How the results depend on the processing

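The count of 1399 genes in intact lungs lay between 646 and 1314 with 1 intact array left out, and between 953 (the 6 intact arrays fitted alone) and 1542 (genes under the median level left out) under the other settings. The labels do not say whether arrays of the same replicate number were paired. Same-numbered intact arrays deviated from their group means together with r of 0.10, 0.15 and 0.05. Among arrays of the other genotype, 5 of 6 correlated best with the one of their own number. Whether same-numbered arrays shared a batch was not tested. With the replicate number as a block 1358 genes passed. Of 153 named results, 8 lost their pass under the block, 6 with array medians subtracted, 5 after quantile normalisation, 22 with the intact arrays alone, 4 with array weights, 3 with a mean-variance trend and 3 with probes averaged. Leaving out wild type array 1, 2 or 3 cost 29, 27 and 16 passes, and Zmpste24-/- array 1, 2 or 3 cost 27, 20 and 42. The interaction count of 70 was 152 without genes under the median level, 26 after quantile normalisation, 43 with the replicate block, 164 with array weights, and 8 to 118 with 1 intact array left out. The causes were not tested. Lmna, which did not pass, ran from -0.05 to 0.15 with 1 array left out, and was negative without wild type array 2 (-0.05), Zmpste24-/- array 1 (-0.02) or Zmpste24-/- array 2 (-0.01). Signal over background was not available, so fold changes of genes below the array medians are limited by it.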

Other observations

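Among drug- and toxin-metabolising enzymes, cytochrome P450 genes passed at close to the background share. Of 72 cytochrome P450 genes 4 were higher and 1 lower (6.94% against 6.31% of all genes), and 36 differences were positive and 36 negative. Cyp2b10 stood at 10.74, 10.66 and 10.56 in wild type and 11.44, 11.48 and 11.48 in Zmpste24-/- lungs (0.81 ± 0.08, adjusted p = 0.000249). Cyp3a13 (0.91 ± 0.15, adjusted p = 0.00309) and Cyp4f15 (1.04 ± 0.18, adjusted p = 0.00471) rose as well, and these 3 passes held. Cyp2a5 (0.80) and the lower gene Cyp4a14 did not hold, with adjusted p up to 0.186 and 0.141 (Cyp2a5 0.147 without wild type array 2), and the lower count was 0 without any 1 of the Zmpste24-/- arrays. Of 13 NRF2 target genes 2 were higher, the glutathione transferases Gsta4 (0.90 ± 0.13, adjusted p = 0.00159) and Gsta3 (0.83 ± 0.16, adjusted p = 0.00803), and both held.

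Of 30 histone genes 4 were higher and 0 lower. H4c12 stood at 9.73, 9.91 and 10.07 in wild type and 10.52, 10.75 and 10.40 in Zmpste24-/- lungs (0.65 ± 0.12, adjusted p = 0.00707). It held, as did H2bc18 (0.72) and H2ac21 (0.49), whereas H4f16 (0.86) reached an adjusted p of 0.0572 without wild type array 2, and its other probe differed by 0.13. Histone genes are near copies, so single values are uncertain. Of 72 respiratory chain subunits 6 were higher and 0 lower. Ndufa6, a subunit of complex I, stood at 7.80, 7.76 and 7.86 against 8.30, 8.40 and 8.38 (0.56 ± 0.08, adjusted p = 0.00224) and held. The count was 2 without wild type array 1, 3 without wild type array 2, 2 without Zmpste24-/- array 1 and 1 without Zmpste24-/- array 3.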
